A study of Mus musculus with 109 samples.

Results

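The genes described here are 39 type I interferon-stimulated genes of the mouse, chosen by name as well-known members of the type I interferon response and found by their Ensembl identifiers among the 37315 genes counted in whole retina. All 39 had a row in the count table, all had counts, and 36 averaged at least 1 CPM (counts scaled to a common library size) over the series. RNA was sequenced from 54 female and 55 male retinas of 64 C57BL/6J wild type (WT) or Sarm1-/- mice aged 2 to 6 months, a range the methods give for the study as a whole. An eye received 2 µL of IL1A (0.1 µg/µL), TNF (0.05 µg/µL) or both cytokines in the vitreous, and the fellow eye, where it was used, received PBS. Mouse 59710 of day 14 received PBS in both eyes. In batch 1, WT retinas taken 2 days after injection comprised 31 PBS, 8 TNF, 9 IL1A and 10 IL1A+TNF retinas. Retinas taken at day 14 comprised 7 PBS and 6 TNF, and those taken at day 35 comprised 6 PBS and 9 TNF. Batch 2, all of day 2, comprised 5 PBS and 6 IL1A+TNF retinas of WT mice and 6 PBS and 6 IL1A+TNF retinas of mice that lack functional Sarm1 in every cell, an NAD-cleaving enzyme of axon degeneration. Total counts ranged from 30014757 to 79064488.

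Type I interferons bind the receptor IFNAR on almost any cell, the receptor kinases JAK1 and TYK2 set off signaling, and a complex that includes STAT2 and IRF9 binds interferon-stimulated response elements and switches on a large set of genes. Their products block viral entry, degrade or hide viral RNA, stop translation, sense foreign nucleic acid and tag proteins with ISG15, and some of them, such as IRF7 and USP18, amplify or end the response. In retina and brain the same program is known as an interferon-responsive state of microglia and astrocytes and can also run in neurons. Bulk RNA from a whole retina cannot tell fewer cells of a type from less RNA per cell.

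Promoter letters are shown for 6 members on which the results below turn, as the 200 bases before the RefSeq start in GRCm38.p6, with every match to the core of an interferon-stimulated response element (GAAANNGAAA on either strand, overlapping matches joined) in capitals. The stretches lie at Isg15, chr4:156200819-156201018 on the minus strand, Ifit1, chr19:34640689-34640888 on the plus strand, Ifit2, chr19:34550494-34550693 on the plus strand, Oas3, chr5:120777660-120777859 on the minus strand, Irf7, chr7:141266425-141266624 on the minus strand, and Ifi44, chr3:151749911-151750110 on the minus strand. Isg15 holds 3 overlapping matches between 78 and 57 bases before the start, Ifit1 holds a pair between 104 and 76 bases before it, and Oas3 has a match 75 to 66 bases before it. No match lies in the windows of Ifit2, Irf7 and Ifi44, which says only that these letters are not there.
Isg15: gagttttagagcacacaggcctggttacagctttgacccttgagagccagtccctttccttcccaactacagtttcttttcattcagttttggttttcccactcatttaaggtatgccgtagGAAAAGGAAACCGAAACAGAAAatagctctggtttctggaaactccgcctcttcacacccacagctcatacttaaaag
Ifit1: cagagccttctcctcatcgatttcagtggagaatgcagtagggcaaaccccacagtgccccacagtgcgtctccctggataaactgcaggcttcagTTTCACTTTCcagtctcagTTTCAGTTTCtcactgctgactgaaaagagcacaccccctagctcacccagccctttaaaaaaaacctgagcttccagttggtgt
Ifit2: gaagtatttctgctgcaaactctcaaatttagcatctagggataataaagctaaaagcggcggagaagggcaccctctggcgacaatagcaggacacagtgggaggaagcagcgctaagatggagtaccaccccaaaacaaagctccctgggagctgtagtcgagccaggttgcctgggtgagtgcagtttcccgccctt
Oas3: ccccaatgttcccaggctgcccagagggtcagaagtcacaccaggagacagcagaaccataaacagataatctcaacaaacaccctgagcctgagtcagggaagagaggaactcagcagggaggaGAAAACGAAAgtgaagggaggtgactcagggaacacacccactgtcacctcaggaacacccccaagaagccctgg
Irf7: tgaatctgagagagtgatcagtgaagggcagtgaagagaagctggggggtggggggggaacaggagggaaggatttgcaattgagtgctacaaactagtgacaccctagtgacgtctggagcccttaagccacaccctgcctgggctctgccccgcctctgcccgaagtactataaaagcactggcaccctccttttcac
Ifi44: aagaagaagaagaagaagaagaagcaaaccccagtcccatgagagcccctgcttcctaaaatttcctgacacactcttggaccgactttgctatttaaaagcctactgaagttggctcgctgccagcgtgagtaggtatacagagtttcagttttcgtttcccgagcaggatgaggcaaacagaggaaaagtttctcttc

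RefSeq promoters (250 bases before to 50 bases after a start) were matched by symbol for 29 of the 39 members, which gave 32 promoters. The response element letters stood in 13 of these 32 (40.6%), against 1131 of all 32851 promoters (3.44%). The 13 belong to Ifih1, Ddx58, Isg15, Oas3, Oas1a, Ifitm3, Bst2, Stat2, Rsad2, Eif2ak2, Ifit3, Ifit3b and Ifit1. The letters of a gamma-activated site (TTCNNNGAA, its own reverse complement) stood in 6 of the 32 member promoters (18.8%) and in 2726 of all promoters (8.3%). Parp14, Usp18, Dhx58, Ifi27, Mx2, Oas2, Rtp4, Zbp1, Parp9 and Mx1 had no entry.

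In WT PBS retinas of day 2 the members spanned a wide range of levels per kilobase of exon (CPM per kb, n = 31). Ifitm3, a membrane protein that keeps viruses from fusing, was highest at 39.7 ± 13.6 (SD). It was followed by Ifit3, an RNA-binding adaptor, at 16.7 ± 5.21, Stat2 at 13.3 ± 3.54, the secreted lectin partner Lgals3bp at 12.5 ± 3.19 and the ubiquitin ligase Trim25 at 10.5 ± 1.46. From Ifit3 to Trim25, each gene lay within the larger SD of its neighbor. At the other end stood Oas3 (0.0869 ± 0.0465), Mx1 (0.168 ± 0.0709) and Ifi44 (0.185 ± 0.0808). Ifit3 and Ifit3b are near-identical copies, the Oas genes are close paralogs, Ifi27 belongs to a family of close copies, Rsad2 lies beside Cmpk2, and Parp9 lies head to head with Dtx3l, so counts within each of these could be shared in part.

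**Figure D1:**
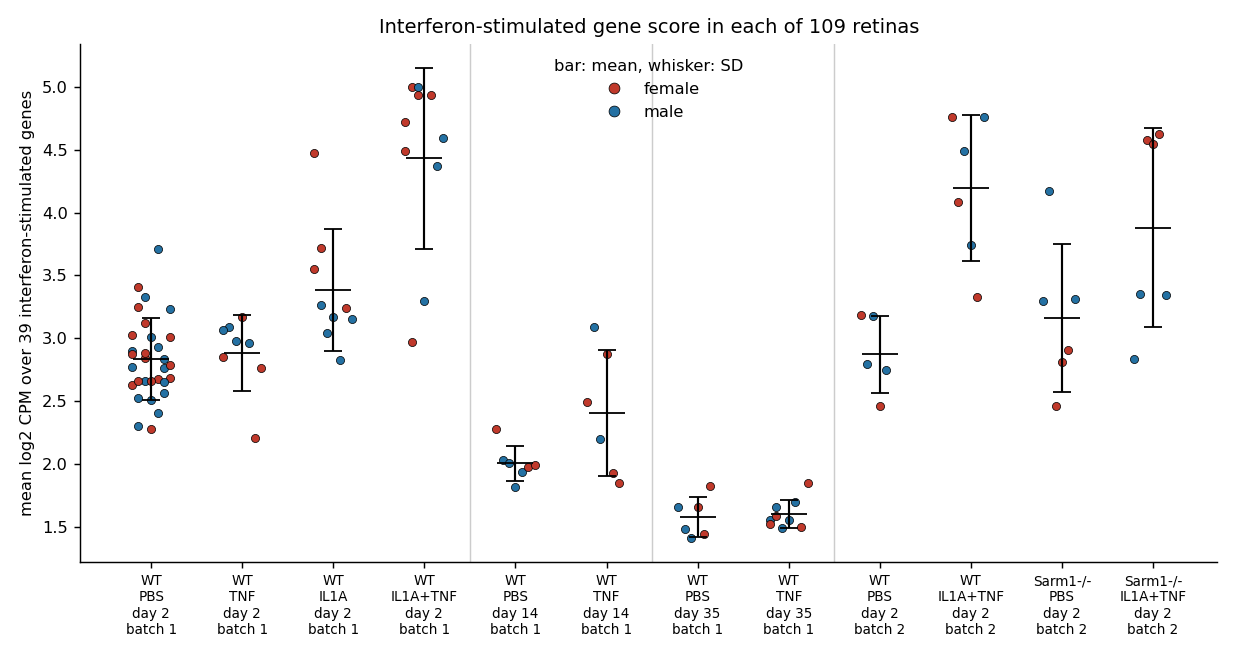
Each point is a retina, the vertical axis is the mean log2 CPM over the 39 interferon-stimulated genes, and columns are the 12 groups of the study with their mean and SD. In batch 1 the IL1A+TNF retinas of day 2 lie above 4 except for a pair near 3, while PBS retinas sit lower at days 14 and 35 than at day 2.

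At day 2, 39 of 39 members were higher after IL1A+TNF than after PBS (limma, false discovery rate (FDR) under 0.05 over 19548 genes), where 24.9% of all genes tested were higher. Their median log2 fold change was 1.51, against −0.02 over all genes, and single members ranged from 0.48 for Ifitm3 to 2.60 for Mx2. The mean log2 CPM over the members, used below as a score, rose from 2.84 in PBS to 4.43 in IL1A+TNF retinas. Relative to the PBS mean, 8 of the 10 IL1A+TNF retinas lay between 1.54 and 2.17, and the retina of mouse 60215 (0.46) and that of mouse 60780 (0.13) lay within the PBS range of −0.56 to 0.88. Both of these held Hmox1, a heme- and stress-induced enzyme, at 163 and 85.9 CPM, above the highest PBS retina (25.5 CPM). When 1 treated retina was left out at a time, 39 members were called each time.

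The interferon-activated transcription factors rose together. Irf7, which amplifies interferon production, ranged from 12.8 to 67.7 CPM in PBS retinas (median 20.5) and from 15.4 to 231 CPM after IL1A+TNF (median 172). This was a 5.60-fold rise (log2 2.49 ± 0.26 SE, FDR 4.2e-12), although the lowest treated retina lay within the PBS range. Stat2 rose from a median of 73.4 CPM (58.2 to 144) to 394 CPM (71.7 to 481) and Irf9 from 42.6 CPM (25 to 84.6) to 197 CPM (45.6 to 271), with log2 fold changes of 1.89 ± 0.20 and 1.90 ± 0.18. STAT2 and IRF9 are subunits of the complex that binds the response elements printed above.

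Cytosolic RNA sensors and the ADP-ribosylation genes gave rises of like size. Ddx58 (RIG-I) had a median of 17.8 CPM in PBS retinas (11.7 to 44.8) and 112 CPM after IL1A+TNF (17 to 145), a log2 fold change of 2.16 ± 0.21. Ifih1 (MDA5) rose by 2.08 ± 0.22, from 12.8 CPM (8.54 to 34.1) to 72.8 CPM (11.4 to 117), while the third helicase of the family, Dhx58 (LGP2), rose by 0.86 ± 0.11 from 2.76 CPM (1.81 to 4.38) to 5.83 CPM (2.96 to 7.17). Parp9, partner of the ubiquitin ligase DTX3L, was at 12 CPM (8.11 to 43.5) in PBS and 106 CPM (13.5 to 151) in IL1A+TNF retinas, a 5.99-fold rise (2.58 ± 0.26). Dtx3l rose by 2.29 ± 0.20, from 12.9 CPM (8.09 to 36.5) to 78.6 CPM (16 to 117). The polymerase Parp14 rose by 2.24 ± 0.20, from 22 CPM (15 to 58.9) to 136 CPM (26.8 to 193), so this small group had a higher median (2.29) than the members as a whole.

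Among antiviral effectors, Mx2, an antiviral GTPase, had a median of 1.63 CPM (1.11 to 7.19) in PBS and 16.4 CPM (1.5 to 28) after IL1A+TNF, a 6.06-fold rise (2.60 ± 0.34). Bst2 (tetherin), which holds budding virions at the membrane, rose by 2.33 ± 0.22 from 4.61 CPM (2.12 to 14.1) to 30.2 CPM (6.13 to 46.1). Eif2ak2 (PKR), which stops translation on double-stranded RNA, rose by 1.88 ± 0.18, from 16.8 CPM (13.3 to 36.9) to 78 CPM (20.1 to 111). The IFIT group holds the Ifit genes, Rsad2 and Cmpk2. In it Ifit1, whose protein binds viral RNA caps, rose from 10.3 CPM (6.19 to 25.1) to 55.4 CPM (8.95 to 90.5), or 2.02 ± 0.22. Rsad2 (viperin) rose by 1.77 ± 0.21, from 3.61 CPM (1.95 to 7.91) to 15.9 CPM (2.86 to 21.8), and Ifit2 by 1.55 ± 0.13, from 22.1 CPM (16.7 to 31.9) to 75.9 CPM (23 to 88.5). For Mx2, Bst2 and Ifit1 the highest treated retina stood above the PBS range and the lowest treated retina inside it.

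The OAS family, whose active enzymes make the messenger that switches on RNase L, rose by 0.79 ± 0.17 (Oasl1) to 1.75 ± 0.17 (Oasl2), with Oas3, the least abundant member, at 1.47 ± 0.22. Oasl2 went from a median of 32.5 CPM (20.3 to 73.8) to 144 CPM (38.8 to 200). Oas1a rose by 1.51 ± 0.17, from 1.12 CPM (0.516 to 2.49) to 3.48 CPM (1.75 to 8.09), and Oas2 by 1.44 ± 0.19, from 0.988 CPM (0.472 to 3.56) to 2.87 CPM (1.58 to 7.88). For all 3 the groups overlapped. In the ISG15 system the protease Usp18, which removes ISG15 and restrains the receptor, rose most, from 5.02 CPM (2.99 to 14.7) to 43.6 CPM (4.41 to 65.5), or 2.56 ± 0.30. The ligase Herc6 rose 2.83-fold, from 10.3 CPM (7.43 to 20.4) to 37.8 CPM (9.48 to 44.2), and the ligase Trim25 by 1.25 ± 0.12, from 59 CPM (49.1 to 82.9) to 169 CPM (55.7 to 211). The activating enzyme Uba7 rose by 1.11 ± 0.11 and Isg15 itself by 1.01 ± 0.16. Of the remaining genes, Ifi44 rose by 2.44 ± 0.22, from 1.03 CPM (0.339 to 2.35) to 6.47 CPM (1.57 to 9.17), and the receptor-transporting protein Rtp4 by 2.32 ± 0.27, from 2.76 CPM (1.38 to 9.36) to 22.6 CPM (2.86 to 28.8). Ifi35 rose by 1.00 ± 0.10, from 4.2 CPM (2.07 to 5.69) to 9.56 CPM (4.8 to 12). Ifi27, Lgals3bp and Ifitm3 moved least, by 0.52 ± 0.12, 0.66 ± 0.12 and 0.48 ± 0.16.

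**Figure D2:**
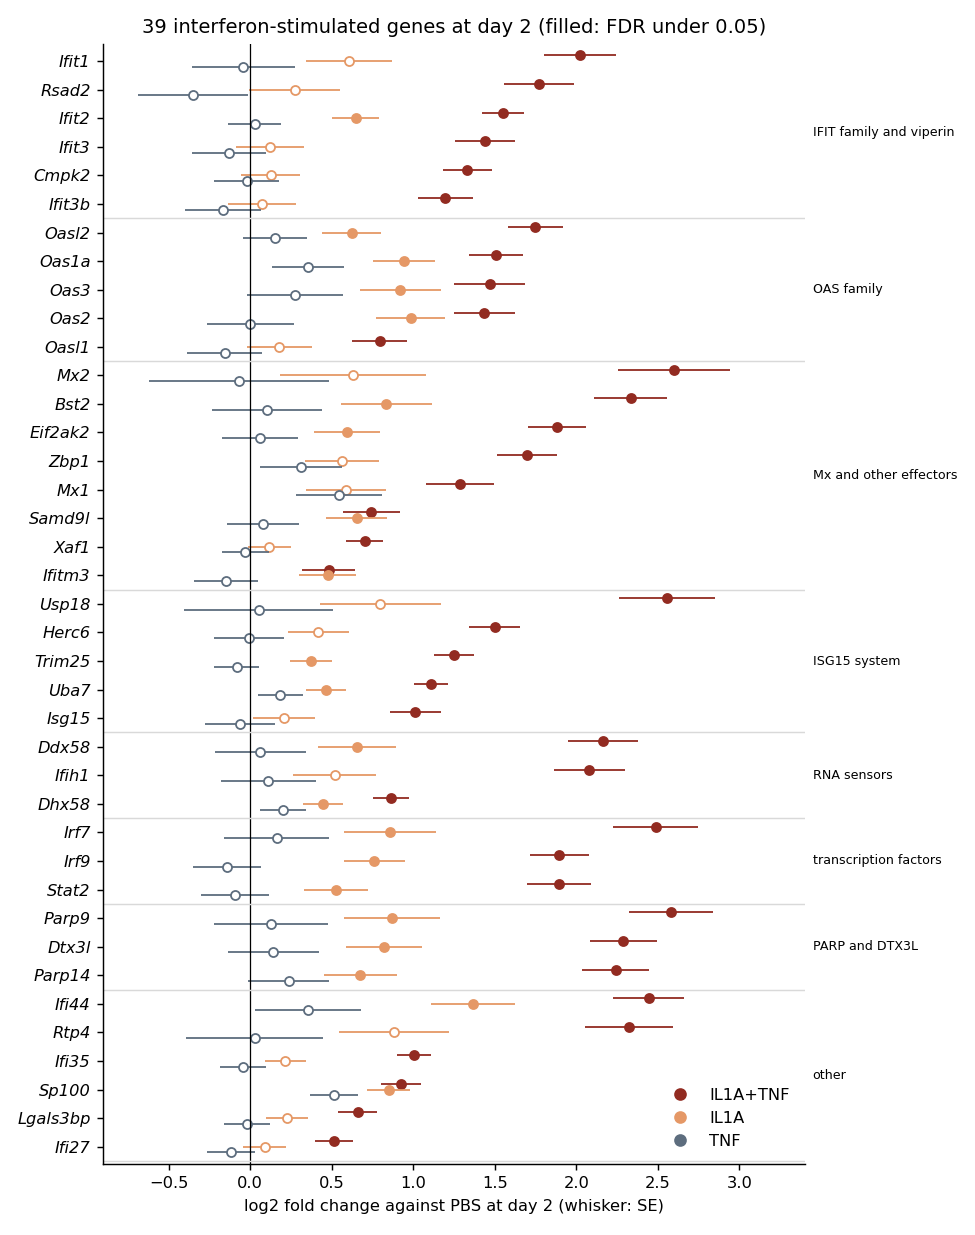
Points are log2 fold changes against PBS at day 2 of batch 1 for each of the 39 genes after IL1A+TNF, IL1A or TNF, whiskers are standard errors, and filled points have an FDR under 0.05. All 39 points of IL1A+TNF are filled and right of 0, 21 of IL1A are filled, and none of TNF.

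IL1A alone raised 21 of the 39 members (limma, FDR under 0.05), against 12% of all genes, and the other 18 also had positive log2 fold changes, with a median of 0.59 over all members. Ifi44 rose most, by 1.37 ± 0.26. Oas2 at 0.98 ± 0.21, Oas1a at 0.94 ± 0.19 and Oas3 at 0.92 ± 0.25 followed. Of the rest of the OAS group Oasl2 passed at 0.62 ± 0.18, and Oasl1 had 0.18 ± 0.20 (FDR 0.60). All 3 transcription factors and all 3 ADP-ribosylation genes passed as well. In the IFIT group Ifit2 alone passed the test (0.65 ± 0.14), whereas Ifit3 and Ifit3b had values of 0.12 ± 0.21 and 0.07 ± 0.21. The female retina of mouse 60637 was the highest of the 9 for most members: its Irf7 level was 117 CPM against 26.6 to 45.1 CPM in the other 8. Without this retina 10 members were called. With mouse as a fixed block in place of a random one, 8 were called.

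In the IL1A retinas the score was on average higher in females than in males. The score relative to PBS averaged 0.91 (0.40 to 1.64) in 4 female and 0.26 (−0.01 to 0.43) in 5 male retinas, ranges that met at their ends. The highest female value was that of mouse 60637. Ifit2 was at 42.3, 42.9, 48.8 and 80.3 CPM in the females and between 20.6 and 28.8 CPM in the males, so for this gene the sexes did not overlap. In a fit of treatment by sex, chosen after seeing the data, 26 members were higher after IL1A in females (11.1% of all genes) and 2 in males (Sp100 and Oas2, 3.92% of all genes). In males the members were called about as often as all genes. The difference in the IL1A effect itself was called for 0 members (8 at an unadjusted p under 0.05, 0% of all genes lower in males), with Ifit2 at −1.13 ± 0.25 (FDR 0.25). The TNF and IL1A+TNF effects did not pass between sexes either (0 members each, 2 and 0 at an unadjusted p under 0.05, 0% of all genes in both). Across treatments males and females differed in 0 members (5 at an unadjusted p under 0.05; edgeR 0 and DESeq2 1 lower), where 0.184% of all genes were lower in males.

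TNF alone raised 0 members at day 2 (limma, FDR under 0.05; 2 at an unadjusted p under 0.05; edgeR 1 and DESeq2 1), where 0.614% of all genes were higher. Without the TNF retina of mouse 60584, the lowest of its group, 1 member, Sp100, was called. This retina held Lcn2 at 13.2 CPM and Hmox1 at 3.79 CPM, below every PBS retina of the day in batch 1 (at least 28.4 and 4.14 CPM), and the PBS eye of the same mouse held them at 76.3 and 9.32 CPM. In the other 7 TNF retinas Lcn2 was at least 48.9 and Hmox1 at least 10.2 CPM. Whether the eyes of this mouse were treated as labelled was not tested. The score of the 8 TNF retinas averaged 0.05 ± 0.30 (SD) above PBS. Sp100, a scaffold of nuclear bodies, came nearest at 0.52 ± 0.15 (FDR 0.10), with a median of 5.13 CPM (1.5 to 6.37) against 3.01 CPM (1.55 to 5.45) in PBS retinas, ranges that overlapped. Mx1 had 0.55 ± 0.26. Irf7 (0.16 ± 0.32), Usp18 (0.05 ± 0.45) and Ifit1 (−0.04 ± 0.31) had values smaller than their standard errors.

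Set against each other within the same fit, IL1A+TNF was higher than IL1A in 28 members (median 1.12, 5.39% of all genes) and higher than TNF in 39 (median 1.505, 20% of all genes). All 6 IFIT group members, all 5 of the ISG15 system and the transcription factors and ADP-ribosylation genes were among the 28. Of the OAS group only Oasl2 was. IL1A exceeded TNF in 3 members, Ifit2 by 0.62, Oas2 by 0.98 and Irf9 by 0.90 (5.39% of all genes). The members were thus called about as often as all genes. This count was 0 without the retina of mouse 60637, and 1 without the TNF retina of mouse 60584 or the IL1A retina of mouse 60216. Without the IL1A retina of mouse 60588 or the IL1A+TNF retina of mouse 60780 it was 5. With mouse as a fixed block the 28 and the 3 both became 0 (for the former, 28 at an unadjusted p under 0.05).

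On the log2 scale 18 members exceeded the sum of the separate IL1A and TNF effects (limma, FDR under 0.05), where 1.78% of all genes did, and 38 of 39 lay above the sum (median 0.97). The largest called departure was that of Rsad2 (1.85 ± 0.45), whose levels were 1.95 to 7.91 CPM in PBS, 1.52 to 5.48 after TNF, 1.91 to 15.6 after IL1A and 2.86 to 21.8 after IL1A+TNF. Parp9 (1.58 ± 0.48), Stat2 (1.46 ± 0.32), Ifit1 (1.45 ± 0.43) and Ifit3 (1.45 ± 0.33) followed, and all 6 members of the IFIT group were called. Of the OAS group, Oasl2 was called, while Oas1a, Oas2 and Oas3 had departures of 0.21 ± 0.31, 0.45 ± 0.35 and 0.27 ± 0.40. Samd9l lay on the sum (0.01 ± 0.31) and Sp100 below it (−0.44 ± 0.21, FDR 0.27). Leaving out the IL1A retina of mouse 60228 or the IL1A+TNF retina of mouse 60214 gave 10 called members, and with mouse as a fixed block 0 were called (23 at an unadjusted p under 0.05).

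**Figure D3:**
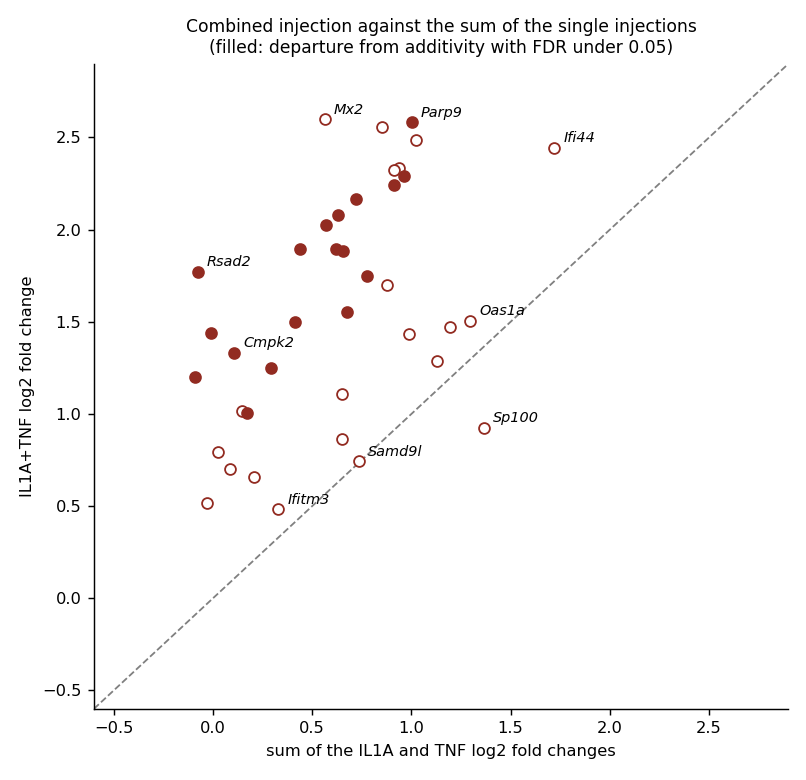
Each point is a gene, with the sum of its IL1A and TNF log2 fold changes on the horizontal axis and its IL1A+TNF log2 fold change on the vertical axis, and the dashed line marks equality. Sp100 lies under the line, Samd9l on it, and the 18 filled points (FDR under 0.05) above it.

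At day 14 and day 35 the TNF and PBS retinas differed in 0 members (limma; 13 of 38 tested and 2 of 36 tested at an unadjusted p under 0.05), where 0% of all genes were called at both days. At day 14 edgeR and DESeq2 called 0 as well, with 21 and 22 members at an unadjusted p under 0.05. All 38 members tested at day 14 had a positive log2 fold change (median 0.29), and the scores of the 6 TNF retinas ran from −0.15 to 1.09 relative to PBS. The male retina of mouse 59709 was the highest, with Ifit2 at 26.2 CPM against 16.2 to 21 in the other 5. The TNF effect did not pass a test of its difference from day 2 at day 14 (0 members, 2 at an unadjusted p under 0.05, edgeR 0 with 12 at that p, 0% of all genes) or at day 35 (0 members, 0 at that p, 0% of all genes).

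The PBS eyes changed over time. Against day 2, 37 members were lower at day 14 (median −0.82, 10.5% of all genes) and 37 were lower at day 35 (median −1.16, 17.4% of all genes). Oas1a moved most at day 14 (−1.94 ± 0.30) and fell by 2.46 ± 0.35 at day 35. Ifitm3 moved most at day 35: it ranged from 11.1 to 47.6 CPM at day 2, from 6.24 to 11.4 CPM at day 14 and from 2.06 to 5.51 CPM at day 35, log2 differences of −1.64 ± 0.26 and −2.89 ± 0.38. Day 35 did not overlap with either of the earlier days for this gene. Bst2 fell from a median of 4.61 CPM (2.12 to 14.1) to 1.99 (1.49 to 3.23) and 0.893 (0.701 to 1.37), and Zbp1, a sensor of Z-form nucleic acid that can start necroptosis, from 1.07 (0.305 to 2.28) to 0.253 (0.197 to 0.439) and 0.208 (0.169 to 0.32). Oas2 also fell (−0.92 ± 0.28 and −2.35 ± 0.40). The filter on low counts took all days together. Members low at days 14 and 35, such as Zbp1, could thus pass through their day 2 retinas alone. For a member that passed in this way the filter favored a fall. With 1 of the 2 PBS eyes of mouse 59710 left out, 36 members were lower at day 14 and 37 at day 35.

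Cmpk2, a nucleotide kinase, was not called at either day (−0.09 ± 0.09 and −0.18 ± 0.10), nor was Samd9l at day 14 or Oas3 at day 35. Over these days summed neutrophil markers (8 genes) in PBS retinas went from 2.47 to 129 CPM at day 2 to between 0.688 and 3.06 CPM at day 14 and 0.668 to 1.23 CPM at day 35, with 2 of 8 markers at 0 at day 14 and 1 at day 35. Summed microglial markers (10 genes) went from 81.1 to 146 CPM to 56.1 to 71 CPM and 41.6 to 52.4 CPM. Their part in the fall was not tested, and day and the group of mice taken that day cannot be told apart. The treatment of the fellow eye also differed by day. Where that eye is in the series, it received TNF, IL1A or IL1A+TNF at day 2, TNF or PBS at day 14, and TNF at day 35. The part of the fellow eye in the fall was not tested either.

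**Figure D4:**
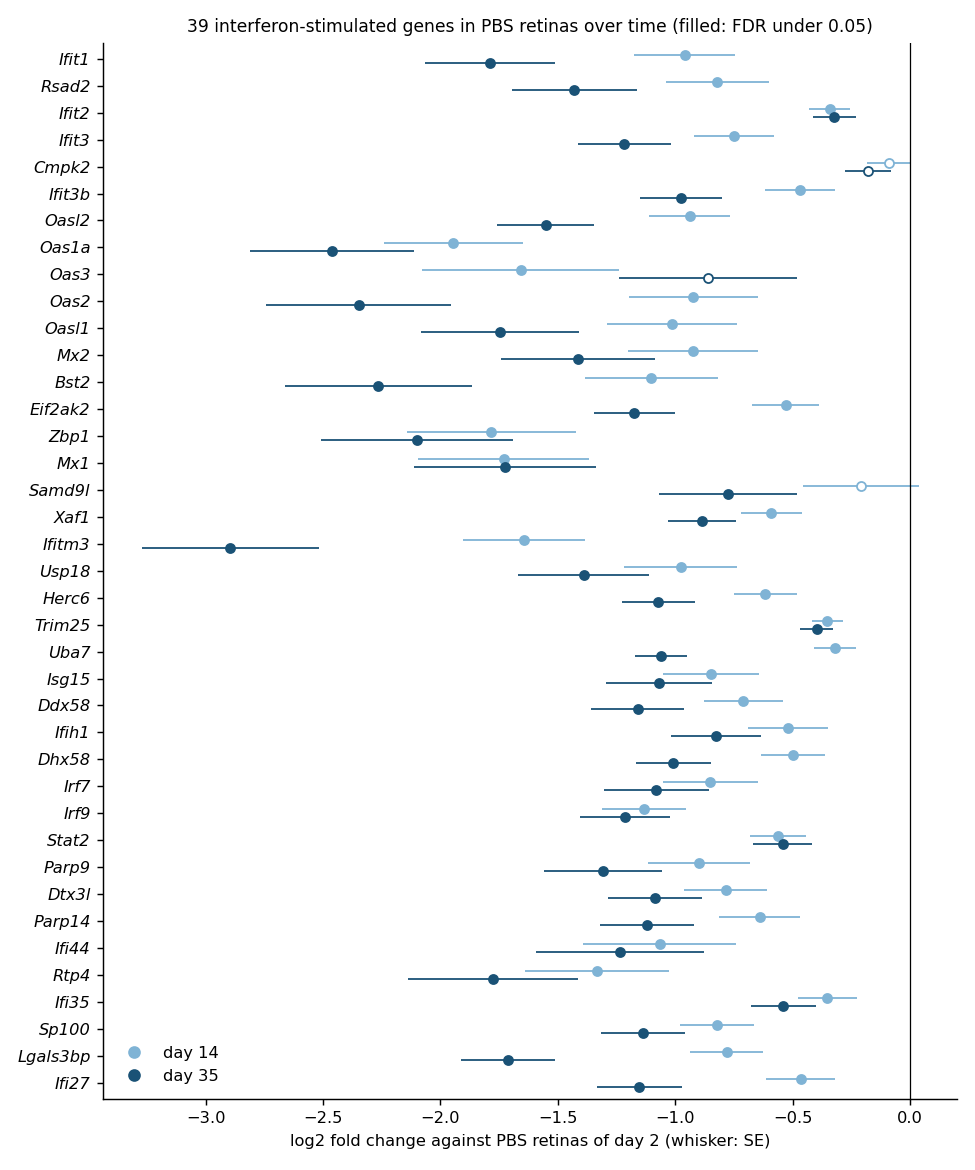
Points are log2 fold changes of PBS retinas at day 14 and day 35 against PBS retinas of day 2 for each of the 39 genes, whiskers are standard errors, and filled points have an FDR under 0.05. Every point lies left of 0, with Ifitm3 farthest at day 35 (−2.89).

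Since PBS was given to the fellow eye of a treated eye, the PBS retinas of day 2 were compared by what that eye had received. Against PBS eyes beside TNF, those beside IL1A+TNF and those beside IL1A gave 0 called members each (limma, 3 at an unadjusted p under 0.05 in each, 0% of all genes in both), with 34 of 39 positive in each. Within mice the score of the IL1A+TNF eye exceeded that of the PBS eye in 8 of 8 WT mice of batch 1, by 0.09 to 2.32 (median 1.79). The IL1A eye was higher in 6 of 7 mice and the TNF eye of day 2 in 6 of 8 (−0.67 to 0.89).

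Other genes of the pathway were listed by role. After IL1A+TNF, where 24.9% of all genes tested were higher, 10 of 11 receptor and JAK-STAT genes were higher (median 0.39). Of 20 upstream sensing genes tested, 15 were higher and 1 lower, and of 10 negative regulators 6 were higher and 2 lower. Genes led mainly by interferon gamma rose in 14 of 15 tested (median 2.46). After TNF alone, where 0 members were called and 0.614% of all genes were higher, these counts were 0, 3, 0 and 3. Of 18 type I interferon ligands, 14 had rows and none passed the filter on low counts: Ifnb1 had 8 counts in 6 retinas of the series, and Ifng 38 counts in 21 retinas. At this depth changes in the ligand transcripts were not detectable.

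Markers of infiltrating and resident myeloid cells moved at the same time. After IL1A+TNF all 9 monocyte and macrophage markers and all 5 neutrophil markers tested (of 8) were higher, and their sums were 455 to 1236 CPM and 118 to 742 CPM, against 92.5 to 277 CPM and 2.47 to 129 CPM in PBS retinas. Microglial markers rose in 7 of 10 and fell in 2, and their sum was 152 to 264 CPM against 81.1 to 146. After TNF alone, where 0 members were called, the monocyte sum ranged from 88.3 to 570 CPM and the neutrophil sum from 2.29 to 48.2 CPM (from 195 and 7.9 CPM without the TNF retina of mouse 60584), with no marker of either list at 0 in the group. The part of these cells in the members' levels was not tested.

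Batch 2 repeated IL1A+TNF against PBS in other WT mice, with 20 members higher (limma, median 1.47, 13.3% of all genes) and the score of the treated eye higher in 5 of 5 mice. With mouse as a fixed block 6 members were called. The count was 8 without the PBS retina of mouse 61927 and 10, 12 and 13 without the IL1A+TNF retina of mouse 61719, 61721 or 62224. With both batches in a common fit, 39 were higher in WT mice (27.8% of all genes). Before the genotypes are compared, 3 male Sarm1-/- mice need mention. The PBS eyes of mice 61561 and 61564 held Lcn2, an acute-phase protein, at 617 and 766 CPM and S100a8, a neutrophil alarmin, at 18.8 and 14.4 CPM, against at most 150 and 3.10 CPM in the other PBS retinas of the batch. The IL1A+TNF eye of mouse 61561 held Hmox1 at 28.5 CPM, against at least 87.2 CPM in the other IL1A+TNF retinas of the batch and at most 17 CPM in PBS retinas. The IL1A+TNF eye of mouse 62221 held Xist at 166 CPM, against at most 7.13 CPM in the other male and at least 1511 CPM in female retinas. Whether the eyes of mice 61561 and 61564 were treated as labelled, and whether the library labelled as the IL1A+TNF eye of mouse 62221 holds RNA of 1 mouse, was not tested, so the values of Sarm1-/- males below are those of libraries labelled so. Sarm1 itself was at 26.2 to 53.2 CPM in Sarm1-/- and 84.1 to 126 CPM in WT retinas of the batch.

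In Sarm1-/- mice IL1A+TNF raised 18 members (limma, median 0.55, 21.3% of all genes), among them Irf7 (2.16 ± 0.51), Irf9 (1.43 ± 0.33), Bst2 (1.58 ± 0.39) and Usp18 (1.68 ± 0.56). Without mice 61561 and 61564 it raised 29 (median 1.36, 24.7% of all genes), and without mouse 62221 it raised 18. In batch 2 alone 7 were called. PBS retinas of the genotypes differed in 0 members (3 at an unadjusted p under 0.05; edgeR 0 with 11 and DESeq2 0 with 10 at that p; 0.00496% of all genes higher), with 39 of 39 positive in Sarm1-/- (median 0.41). Without mice 61561 and 61564, 32 of 39 were positive (median 0.13, 0 at an unadjusted p under 0.05). After IL1A+TNF 4 members were lower in Sarm1-/- than in WT retinas (10.8% of all genes): Ifit2 (−1.14 ± 0.19), Ifi44 (−1.81 ± 0.33), Mx1 (−0.97 ± 0.33) and Lgals3bp (−0.58 ± 0.16). The members were thus called lower about as often as all genes. Lgals3bp was at 31.7 to 47.7 CPM in Sarm1-/- and 42.5 to 68.5 CPM in WT IL1A+TNF retinas of the batch, and Mx1 at 0.384 to 1.34 and 0.888 to 2.84 CPM, ranges that overlapped for both. The effect of IL1A+TNF itself was smaller in Sarm1-/- mice for 8 members (7.24% of all genes), namely Ifi44, Ifit1, Ifit2, Herc6, Lgals3bp, Dhx58, Ifi27 and Uba7. This count was 0 in batch 2 alone (4 at an unadjusted p under 0.05), 3 by edgeR and 2 with a fixed mouse block. Leaving out 1 retina of batch 2 at a time gave 2 (IL1A+TNF retina of mouse 61924 or 61926) to 16 (that of mouse 61765), with 13 to 14 or 4 to 5 without any of 7 other retinas. For the 4 members it gave 2 (mouse 61924) to 8 (mouse 61765, or the WT retina of mouse 61927). Without mice 61561 and 61564, 2 members, Ifit2 and Ifi44, were called in both tests (16.8% and 13.8% of all genes). In both tests this was a smaller share of the members than of all genes. Without mouse 62221 the counts were 3 and 5.

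**Figure D5:**
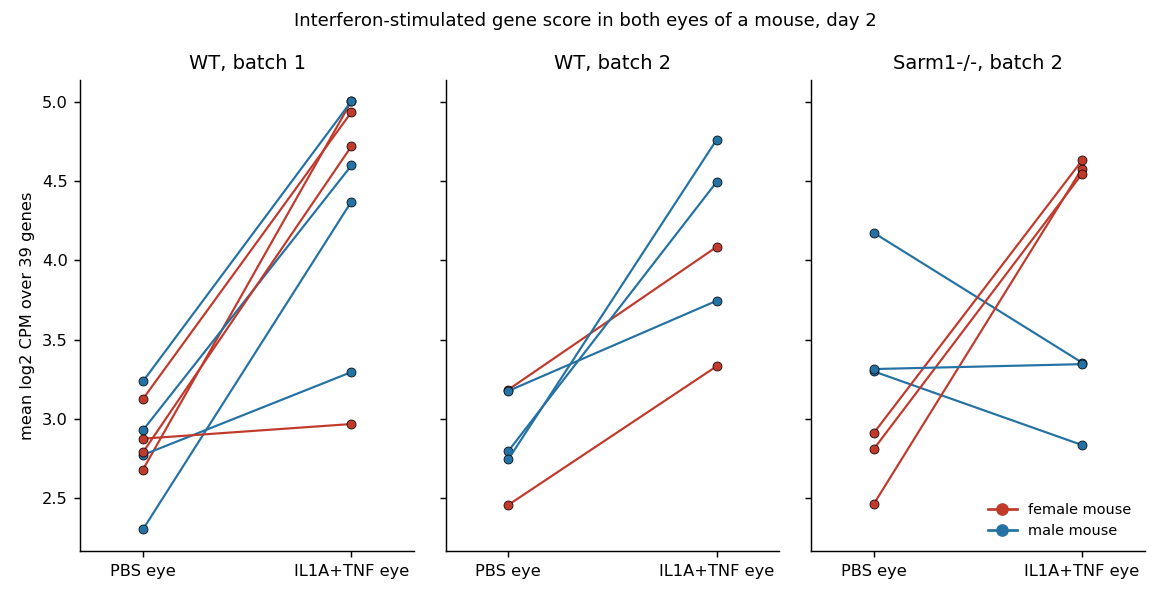
Lines join the PBS eye and the IL1A+TNF eye of a mouse at day 2, the vertical axis is the mean log2 CPM over the 39 genes, and color gives the sex. All 13 WT mice rise, the 3 female Sarm1-/- mice rise by 1.72 to 2.12, and the 3 males change by −0.82 to 0.03.

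Within Sarm1-/- mice the 3 females and the 3 males, as labelled, differed in response. The score of the IL1A+TNF eye exceeded that of the PBS eye by 1.72, 1.74 and 2.12 in the 3 females and by −0.82, −0.47 and 0.03 in the 3 males. Irf7 showed the same: IL1A+TNF retinas were at 223, 277 and 241 CPM in females and 24.8, 36 and 47.6 CPM in males, while PBS retinas were at 13.3 to 16 CPM in females and 22.2 to 37.2 CPM in males. In a fit with sex in each group, chosen after seeing the data, 34 members were higher after IL1A+TNF in Sarm1-/- females (median 1.96, 26.7% of all genes) and 0 in Sarm1-/- males (9 at an unadjusted p under 0.05, 6 of 39 positive, 0.0433% of all genes). The effect was smaller in males for 35 members in Sarm1-/- mice (16.4% of all genes) and for 0 in WT mice (limma, 0 at an unadjusted p under 0.05, 0% of all genes).

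The difference between genotypes in the IL1A+TNF effect was called for 31 members in males (1.14% of all genes). It was called for 2 in females (15.8% of all genes, a larger share than of the members). A difference between the sexes in this genotype difference was called for 33 members (11.4% of all genes). In batch 2 alone these counts were 0 in males (38 at an unadjusted p under 0.05, 0% of all genes) and 0 in females (4 at that p, 7.63% of all genes). The difference between the sexes was called there for 13 members (1.44% of all genes). In Sarm1-/- PBS retinas 39 of 39 members were more abundant in males (median 0.87), of which 0 were called (19 at an unadjusted p under 0.05, 0.0385% of all genes). Without mouse 62221 the 35 and 33 were 35 and 33 again, but that fit leaves mice 61561 and 61564 as the only Sarm1-/- males. The 3 males include the pair of mice with high Lcn2 in the PBS eye, so sex and these mice cannot be told apart in 3 animals.

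After IL1A+TNF Ifit2 and Ifi44 lay below the WT range of the batch in every Sarm1-/- retina except that of male 61564. In males low values were not particular to these genes, since 31 members had a smaller effect in Sarm1-/- than in WT males. Ifi44, a cytoplasmic protein named for its induction by interferon, was at 4.25 to 7.32 CPM in the 6 WT IL1A+TNF retinas of batch 2 and at 2.98, 0.795 and 1.15 CPM in Sarm1-/- females, whose own PBS eyes were at 1.01, 1.24 and 1.03 CPM. Of these 3 mice, the first alone had a treated eye well above its PBS eye. In Sarm1-/- males it was at 0.874, 4.69 and 1.94 CPM after IL1A+TNF, of which the 4.69 CPM of mouse 61564 alone reached the WT range. Ifit2, which binds AU-rich viral RNA, was at 49.9 to 86.6 CPM in WT IL1A+TNF retinas, 43.1, 22.8 and 23.3 CPM in Sarm1-/- females and 24.2, 51.5 and 26.4 CPM in males. The PBS eyes of these females were at 18, 24.1 and 23.4 CPM, so Ifit2 rose in the first alone. The other females, mice 61924 and 61926, held Hmox1 at 441 and 554 CPM in the treated eye. The highest WT IL1A+TNF retina of the batch held it at 264 CPM. The part of this in their low Ifit2 and Ifi44 was not tested. The 51.5 CPM of mouse 61564 lay within the WT range. In the same Sarm1-/- female retinas Usp18 was at 54.5, 50.6 and 40.3 CPM, where WT retinas ran from 5.97 to 47.8 CPM.

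In females alone the IL1A+TNF effect was lower in Sarm1-/- than in WT mice by 1.14 ± 0.30 for Ifit2 and 1.90 ± 0.59 for Ifi44 (log2, limma, FDR 0.0022 and 0.011), while the members had a median of +0.38. In batch 2 alone neither passed in females (Ifit2 −1.04 ± 0.42, FDR 0.13, and Ifi44 −1.88 ± 0.92, FDR 0.22). Ifit2 and Ifi44 were singled out after these results were seen, and the fits counted next share retinas, so the counts are not independent. After IL1A+TNF both genes were called lower in Sarm1-/- in 10 of 10 other settings, batch 2 alone and the fits without mice 61561 and 61564 or without mouse 62221 included, and in 12 of 12 fits that left out 1 IL1A+TNF retina of batch 2. The difference in the effect was called in 10 of 11 settings and 12 of 12 such fits for each gene, and missed in batch 2 alone (Ifit2 −1.28, FDR 0.75, and Ifi44 −2.10, FDR 0.81). Summed microglial markers (10 genes) in IL1A+TNF retinas of the batch were 133 to 163 CPM in Sarm1-/- females, 180 to 210 CPM in males and 209 to 285 CPM in WT retinas, and summed ganglion cell markers (5 genes) were 74.9 to 544 CPM in Sarm1-/- and 276 to 476 CPM in WT retinas. No marker of either list was at 0 in these groups, and their part in the genotype difference was not tested. Neither gene lies on the chromosome of Sarm1 (11), which carries 5 members, Xaf1 6.16 Mb, Trim25 10.5 Mb, Dhx58 22.2 Mb, Ifi35 23 Mb and Lgals3bp 39.9 Mb from Sarm1. All Sarm1-/- retinas came from batch 2 and from a single line, so genotype and line cannot be told apart.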

How the data were processed

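Polyadenylated RNA of whole retinas was sequenced in read pairs. Per the labels and the study's methods, STAR 2.7.9a placed the pairs on mm10, and featureCounts (Subread 2.0.1) assigned them to genes. The deposited values are these counts, whole numbers without normalization, for 37315 Ensembl genes. The annotation release and the strand setting of the counting are not given in the sources used here. Symbols and positions came from GENCODE M21 on GRCm38, and promoter letters from RefSeq. Total counts ranged from 30014757 to 79064488, so 1 count is far below 1 CPM in every retina. No columns of the table were left unused.

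The software was limma 3.58.1 with edgeR 4.0.16, DESeq2 1.42.0, statmod 1.5.0 and R 4.3.3. Low genes were dropped by filterByExpr (minimum count 10) before TMM scaling. As in the study's methods, the tests were moderated tests on voom weights, in which duplicateCorrelation took mouse as a random block. P-values were adjusted by Benjamini-Hochberg over all genes of a fit and called at an FDR under 0.05. Day 2 of batch 1 was fitted with treatment and sex, days 14 and 35 each had a fit, and the genotypes were compared in both batches with group, sex and batch. PBS retinas of 3 days, and PBS retinas by the treatment of the fellow eye, were fitted without a block, and both eyes of mouse 59710 entered the fit of the 3 days. Eyes of a mouse pair by the number in the labels, 45 mice gave both eyes, and the estimated correlation within mice was 0.052 in the day 2 fit and 0.0053 in the fit of both genotypes. CPM are TMM scaled. The score and log2 CPM used a prior count of 2. P-values measure the spread between eyes.

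The members, the lists of other genes and the comparisons were chosen with earlier results of these data known. Levels are given for the 3 members of each role group that changed most after IL1A+TNF among those averaging at least 1 CPM, and for members called between genotypes after IL1A+TNF. Others whose levels are printed were chosen after their values were seen. Alternatives were edgeR's quasi-likelihood test, DESeq2, size factors in place of TMM, no filter or 1 CPM as the filter, leaving sex out of the fit, mouse as a fixed block or not at all, batch 2 alone, and each retina of a treated group of batch 1 or of the WT PBS group of batch 2 left out. The fits that leave out the other retinas of batch 2 in turn or an eye of mouse 59710, the fits by sex within genotype and treatment, and those without mice 61561 and 61564 or without mouse 62221, were chosen after seeing the data. The scripts were tested on simulated data.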

Additional observations from a re-analysis of the deposited data

Results flagged for a closer look

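Among 319 series of values (the score and 28 members in each group of 4 to 10 retinas), 24 held a retina at 1 end whose gap to the next, divided by the range of the group, exceeded Dixon's 95% critical value. Chance gives about 1 such series in 20, and members share retinas, so the 24 are not independent.

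The female IL1A retina of mouse 60637 was the highest of its group for 11 members, with gaps of 0.565 of the range for Parp9, 0.519 for Usp18, 0.645 for Irf7, 0.493 for Parp14, 0.62 for Ddx58, 0.591 for Ifih1, 0.567 for Stat2, 0.573 for Eif2ak2, 0.512 for Oasl2, 0.577 for Trim25 and 0.497 for Uba7. The female TNF retina of mouse 60584 was the lowest of the TNF retinas of day 2, with a gap of 0.579 for the score, 0.568 for Ifi44, 0.669 for Bst2, 0.554 for Rtp4, 0.6 for Dtx3l, 0.528 for Oasl2, 0.605 for Oas1a and 0.527 for Ifi27. The female IL1A+TNF retina of mouse 60780 was the lowest of its group, with 0.671 for Ifi44 and 0.63 for Ifit2. The remaining 3 were the highest Dtx3l in PBS retinas of day 14 (mouse 59708, 0.577), the lowest Eif2ak2 in TNF retinas of day 35 (mouse 59730, 0.697) and the highest Ifi27 in WT IL1A+TNF retinas of batch 2 (mouse 61719, 0.642).

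Effects differed between groups, by a test of the difference itself (limma, FDR under 0.05), in 4 cases. The TNF effect differed with and without IL1A for 18 members (1.78% of all genes). The IL1A+TNF effect was smaller in Sarm1-/- than in WT mice for 8 members (7.24% of all genes). Among Sarm1-/- mice it was smaller in males than in females for 35 (16.4% of all genes). The difference between genotypes in that effect differed between the sexes for 33 members (11.4% of all genes). Both comparisons of the sexes rest on Sarm1-/- males that include mice 61561 and 61564.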

How the results depend on the processing

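No called member changed direction under the alternatives, which for single members did not include leaving out 1 retina. For IL1A against PBS, 21 called members became 13 without a filter on low counts and 8 with mouse as a fixed replicate block. For TNF against PBS 0 became 1 by edgeR and 1 by DESeq2. For IL1A+TNF against IL1A 28 became 0 with the fixed block (28 at an unadjusted p under 0.05), and for IL1A against TNF 3 became 5 by edgeR, 8 by DESeq2 and 0 with the fixed block. The departure from additivity went from 18 to 11 without the filter and 0 with the fixed block (23 at an unadjusted p under 0.05). In batch 2, 20 WT calls became 6 with it. The fixed block keeps only mice with 1 treated and 1 PBS eye. With no block, no count moved by over 1.5 times. In the fit of both genotypes, batch 2 alone gave 20 in place of 39 for WT, 7 in place of 18 for Sarm1-/-, 2 in place of 4 between genotypes after IL1A+TNF and 0 in place of 8 for the difference in effect (4 at an unadjusted p under 0.05). The last was 3 by edgeR, 2 with the fixed block, 2 without mice 61561 and 61564 and 5 without mouse 62221, and leaving out the former mice gave 29 for Sarm1-/- and 2 between genotypes. The causes were not tested.

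Leaving out 1 retina at a time gave 39 to 39 members for IL1A+TNF against PBS, 10 to 28 for IL1A, 0 to 1 for TNF, 28 to 34 for IL1A+TNF against IL1A, 35 to 39 against TNF, 0 to 5 for IL1A against TNF, 10 to 26 for the departure from additivity and 0 to 0 for sex, day 14 and day 35. Over all retinas of batch 2 it gave 8 to 29 for WT in batch 2, and in the fit of both genotypes 39 to 39 for WT, 13 to 22 for Sarm1-/-, 0 to 0 between PBS retinas, 2 to 8 between genotypes after IL1A+TNF and 2 to 16 for the difference in effect. Members that averaged under 1 CPM in WT PBS retinas, such as Oas3 and Mx1, rest on few counts per retina.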

Other observations

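Other lists of genes, none of which holds a member, moved as follows after IL1A+TNF at day 2 of batch 1 (limma, FDR under 0.05). NF-kB targets were higher in 9 of 10 and lower in 1, where 24.9% of all genes were higher. Their summed level fell all the same, from a median of 353.5 CPM in PBS to 248.5 CPM in IL1A+TNF retinas. Markers of photoreceptors were lower, in 4 of 5 for rods and 4 of 4 for cones, as were 4 of 5 markers of retinal ganglion cells (median −0.27) and 2 of 3 of the pigment epithelium. Astrocyte markers were higher in 3 of 4 and lower in 1, Müller glia markers were higher in 2 and lower in 2 of 5, and markers of endothelium and pericytes were higher in 4 of 5. Markers of plasmacytoid dendritic cells were lower in 2 of 3 tested. Their sum was 178 to 222 CPM in PBS and 187 to 221 CPM in IL1A+TNF retinas, so the calls do not show a change in these cells. Markers of B cells were higher in 1 of 3 tested, and those of T and NK cells (2 tested), lens (3) and erythrocytes (3) were called in 0, with 0 at an unadjusted p under 0.05.

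Among the type I interferon ligands, Ifnk had the most counts, 323 over 94 retinas with at most 14 in a retina, and Ifnz had 96 over 51 retinas. No other type I ligand passed 8 counts over the series.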
